A study of Mus musculus with 6 samples.

Results

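Autophagy machinery is described here as 38 genes, chosen by name: each row of the deposited comparison table whose symbol was one of 38 known autophagy genes was taken, and its raw counts were read by Ensembl identifier. All 38 were found, among 54446 genes listed, and all 38 passed the filter on low counts that left 16734 genes to test. The mean normalized count, a count scaled to the mean library size, was 500 or more for 36 of them and lower for Atg4a and Atg10. The data are RNA-seq of the liver of 3 wild-type (WT) and 3 Fmo5-/- mice, with 1 library per mouse. All were male, on a C57BL/6 background (C57BL/6J by the study's methods), 32 weeks old and fed standard chow. The Fmo5-/- mice lack flavin-containing monooxygenase 5 in the whole animal, so the liver is not its only site of loss. The study asked which transcripts differ in the liver of these lean mice.

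In autophagy, a double membrane grows around cytoplasm, closes as an autophagosome and fuses with a lysosome, where the contents are digested. The ULK1 kinase complex starts the process and the VPS34 lipid kinase complex marks the membrane with phosphatidylinositol phosphate, to which WIPI proteins bind. ATG9 and ATG2 supply lipid. A pair of ubiquitin-like conjugation systems then attaches ATG8 proteins (the LC3 and GABARAP families) to the membrane, and cargo receptors tether what is to be degraded to these ATG8 proteins. In liver, autophagy is known for supplying nutrients in fasting and for turning over mitochondria, protein aggregates and lipid droplets. Much of its control acts on proteins, so a transcript level is not a measure of autophagic flux.

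Fmo5 was checked first. Its normalized count was 39808, 37405 and 30240 in the WT mice and 1071, 1102 and 1194 in the Fmo5-/- mice, a log2 fold change of -4.996 (SE 0.14, adjusted p = 2.8e-07 by edgeR's quasi-likelihood test), in the direction of the labels. None of the 38 genes lies on chromosome 3, which holds Fmo5. Between 44886286 and 52338675 reads per library were counted on genes, and 5.39% to 6.2% of these were mitochondrial. Reads mapped to several places made up 11.8% to 13.1% of a WT library and 10.4% to 11.5% of a Fmo5-/- library. Unmapped reads made up 9.72% to 10.1% and 9.1% to 9.2%, and reads on several genes 3.52% to 3.62% and 3.72% to 3.98%. What set these shares apart was not tested. Hepatocyte markers were abundant in every library, at a summed 107687 to 138365 CPM (counts scaled to a library of 1e+06) in WT and 110318 to 136040 in Fmo5-/- mice. Of 9 lists of cell type markers, 6 overlapped between the genotypes. The 8 macrophage markers summed to 172 to 199 CPM in WT and 254 to 467 CPM in Fmo5-/- mice, and 1 of the 8 (Clec4f) passed the test. The 4 neutrophil markers summed to 0.775 to 2.32 against 2.37 to 5.004 CPM, and the 3 adipocyte markers to 9.28 to 21.3 against 0.865 to 2.84 CPM, with no marker of either list called and no marker of any list at 0 in every library. The part of these differences in the values of the autophagy genes was not tested. In bulk liver, fewer cells of a type and less RNA per cell cannot be told apart.

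Most of the autophagy genes had a lower mean in Fmo5-/- liver, by small amounts. The mean was lower for 33 of the 38 and higher for Atg101, Atg2a, Ambra1, Atg16l2 and Atg4d, a split that became 21 lower of 36 tested when genes with a mean under 500 were removed before scaling. The median log2 fold change was -0.14, the lowest -0.49 (Bnip3) and the highest 0.24 (Atg16l2). Over all tested genes the median was 0.0058 and 49.2% were lower, and over the 7819 tested genes that reached a mean of 500 it was -0.062 and 64% were lower. None of the 38 had an adjusted p under 0.05 by edgeR's quasi-likelihood test, where 1.37% of all tested genes were called in either direction and 0.693% as lower, and the smallest adjusted p of the 38 was 0.055. In simulated data most changes of the smallest size tried, which was slightly larger than any seen among these genes, were not called either. A count of 0 therefore does not show equal levels. At an unadjusted p under 0.05 by edgeR there were 15, all lower, against 10.2% of all tested genes lower at that level and 17.6% of those that reached a mean of 500. That count was 8 when the library of WT replicate 2 was left out. Map1lc3a, Bnip3l, Tax1bp1, Bnip3, Atg3, Atg4a, Gabarapl2 and Atg12 stayed under 0.05 with each library left out in turn, and the other 7 did not. DESeq2 called 6 (Map1lc3a, Bnip3l, Tax1bp1, Bnip3, Atg3 and Atg4a), all lower. Of the 15571 genes to which it gave an adjusted p, it called 8.96% in either direction and 4.21% as lower. Among the 7819 tested genes that reached a mean of 500 it called 528 as lower, and 5 of the 36 members that did.

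**Figure D1:**
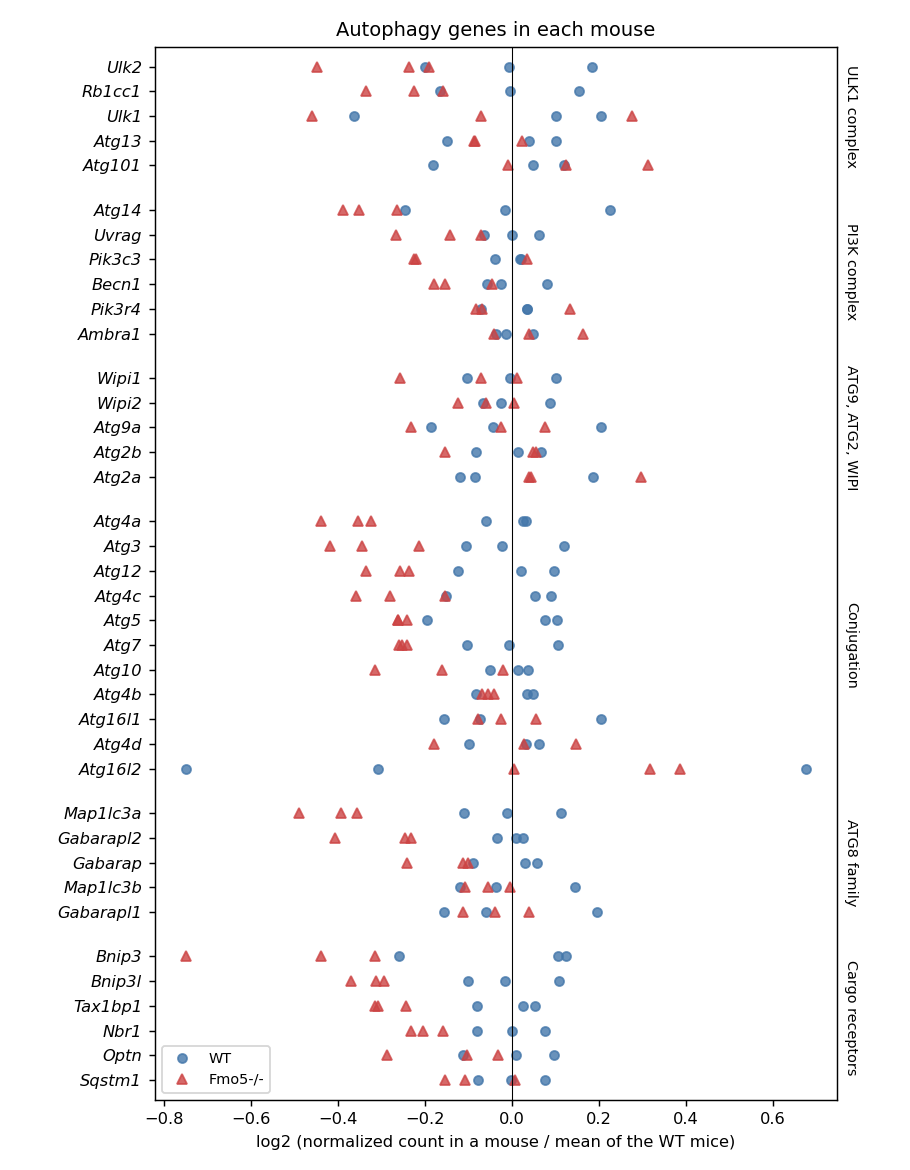
Normalized count of each autophagy gene in each mouse, as the log2 ratio to the mean of the 3 WT mice (x axis), grouped by role (y axis); circles are WT and triangles Fmo5-/- mice. The triangles lie left of all circles for 15 genes, most of them in the conjugation and cargo receptor groups, and Atg16l2 shows the widest spread among WT mice.

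The values of the genotypes did not overlap for 15 of the 38 genes, all lower in Fmo5-/- mice, against 13.5% of all tested genes without overlap in that direction and 21.9% of those that reached a mean of 500. Of these 15, 13 were also among the 15 at an unadjusted p under 0.05. Within a genotype the members varied little, with a median coefficient of variation of 7.28% in WT and 6.36% in Fmo5-/- mice. The libraries did not stand equally apart. The members' median log2 deviation from the mean of the 6 libraries was 0.10, 0.15 and 0.0020 in the WT mice and -0.031, -0.12 and -0.067 in the Fmo5-/- mice. Over genes that reached a mean of 500 it was 0.0415, 0.0447 and 0.0085 in WT and -0.0004, -0.0658 and -0.0222 in Fmo5-/- mice. Over all tested genes it ran from -0.0057 to 0.0168. WT replicate 3 thus lay nearest to the Fmo5-/- mice, and it held the lowest WT value of 27 of the 38 genes.

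**Figure D2:**
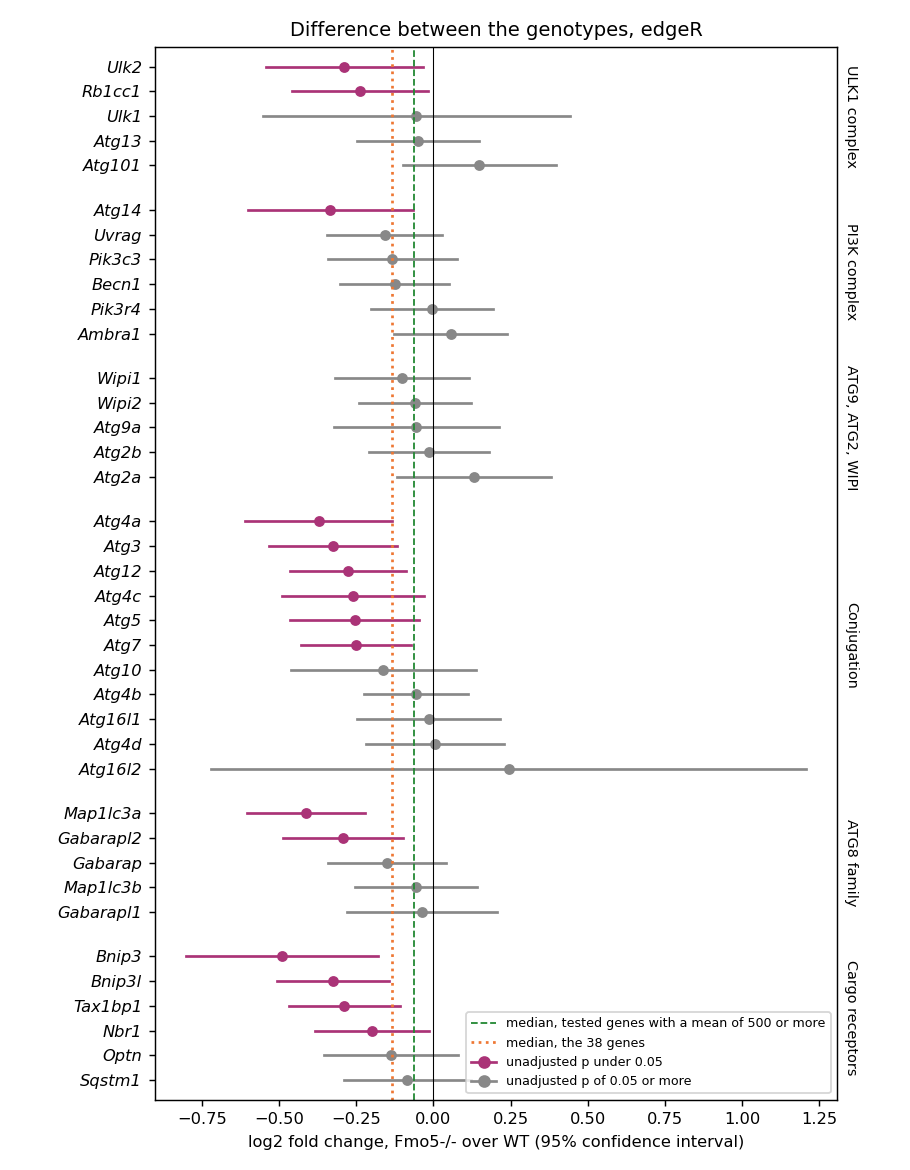
Log2 fold change of each autophagy gene, Fmo5-/- over WT, by edgeR (x axis; points), with its 95% confidence interval (lines), grouped by role (y axis). The 15 genes with an unadjusted p under 0.05 all lie left of 0 and of the median of the 38 genes (-0.14); 33 points in all lie left of 0, a number that becomes 21 of 36 when genes with a mean under 500 are removed before scaling.

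Promoters of the members were searched for 3 short motifs on both strands, from 250 bases before to 50 after each RefSeq start (GRCm38.p6). RefSeq promoters were matched for 31 of the 38 genes. Map1lc3a, Bnip3l, Atg12, Rb1cc1, Becn1, Pik3c3 and Atg16l1 were not matched in the promoter table used here. CACGTG, the core of the CLEAR element bound by the lysosome and autophagy regulators TFEB and TFE3, was found for 5 of the 31 (16.1%), namely Atg14, Atg3, Atg5, Atg7 and Bnip3, against 8.09% of all genes with a promoter (7.15% of all promoters). Each of these 5 genes was among the 15 at an unadjusted p under 0.05, 11 of which had a promoter. Of all tested genes with CACGTG, 11.2% were lower at that level, as were 11.2% of all tested genes matched to a promoter (17% and 17.4% of those that reached a mean of 500). TGACNNNGC, the core of the antioxidant response element bound by NRF2, was found for 4 (Atg13, Map1lc3b, Tax1bp1 and Ulk2), or 12.9% against 14% of all genes (12.4% of all promoters). Of these 4, Tax1bp1 and Ulk2 were among the 15 and the other 2 were not, and 12.1% of all tested genes with TGACNNNGC were lower at that level (18.2% of those that reached a mean of 500). TGTTTAC, a FOXO core, was found for none of the 31, against 4.05% of all genes (3.65% of all promoters), which says only that these letters are not in these windows. No match overlapped one of another motif in the stretches shown. They belong to the 4 genes with the smallest p among those with a CACGTG or TGACNNNGC match, and are given from 5′ to 3′ on the strand of the gene with the match in capitals. In order they lie at chr6:52713920-52714008 (plus strand, TGACNNNGC), chr7:138909569-138909654 (minus strand, CACGTG), chr16:45158695-45158803 (plus strand, CACGTG at 2 places) and chr6:114670924-114671009 (plus strand, CACGTG), where the matches begin 205, 108, 94 and 71, and 132 bases before the RefSeq start. The RefSeq start used for Atg7 lies 27999 bases downstream of the start of the gene in GENCODE vM21, so that stretch is inside the annotated gene. Tax1bp1 has 2 RefSeq promoters. The match is in the one whose start lies 436 bases downstream, so that stretch too is inside the annotated gene. The other start of Tax1bp1 is the start of the gene. For Atg14, counted but not shown, the start used lies 2215 bases downstream, while those of Bnip3, Atg3 and Atg5 lie within 44 bases of the gene start.
Tax1bp1: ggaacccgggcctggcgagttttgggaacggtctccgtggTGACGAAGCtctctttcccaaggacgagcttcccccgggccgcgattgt
Bnip3: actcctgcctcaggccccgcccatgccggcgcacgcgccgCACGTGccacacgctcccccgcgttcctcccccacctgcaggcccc
Atg3: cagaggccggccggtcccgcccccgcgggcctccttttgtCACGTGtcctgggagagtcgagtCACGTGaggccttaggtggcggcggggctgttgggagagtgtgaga
Atg7: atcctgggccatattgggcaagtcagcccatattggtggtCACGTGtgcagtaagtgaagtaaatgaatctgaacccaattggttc

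In the ULK1 complex, the kinase Ulk2 and the scaffold Rb1cc1 (FIP200) were lower at an unadjusted p under 0.05 by edgeR, a level that the other 3 subunits did not reach. That was 2 of 5 (40%), against 10.2% of all tested genes and 17.6% of those that reached a mean of 500. The normalized count of Ulk2 was 3735 ± 495 (SD, n = 3) in WT and 3057 ± 282 in Fmo5-/- mice, a log2 fold change of -0.29 (SE 0.11, unadjusted p = 0.031 and adjusted p = 0.18 by edgeR). Rb1cc1 stood at 1947 ± 214 and 1650 ± 101, a log2 fold change of -0.24 (SE 0.098, adjusted p = 0.20 by edgeR). The genotypes overlapped for both. Without WT replicate 2 the log2 fold changes were -0.19 for Ulk2 and -0.15 for Rb1cc1, at unadjusted p of 0.13 and 0.16 by edgeR. Neither was under 0.05 without WT replicate 1, without Fmo5-/- replicate 2 or with genes under a mean of 500 removed first. Rb1cc1 was not under 0.05 without Fmo5-/- replicate 1 either. Without a filter on low counts edgeR called Ulk2 (adjusted p = 0.046), where it called 5.82% of all genes, against 1.37% in the reported fit. Ulk1, the other kinase of the complex, was the most variable of the 5, ranging from 3593 to 5322 in WT and from 3359 to 5593 in Fmo5-/- mice, so that its log2 fold change of -0.055 had an interval from -0.55 to 0.44. Atg13, which binds the kinase to the scaffold, had a log2 fold change of -0.049 (SE 0.087). Atg101, the partner that stabilizes ATG13, was higher in mean, at 2453 ± 260 in WT and 2719 ± 308 in Fmo5-/- mice (log2 fold change 0.15, SE 0.11, adjusted p = 0.48 by edgeR). Without WT replicate 2 it was at 0.067 and without Fmo5-/- replicate 2 at 0.059.

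In the VPS34 complex, Atg14 differed most, the subunit that directs the lipid kinase to the site where autophagosomes form. Atg14 was counted at 952, 1126 and 813 (normalized) in WT and 736, 754 and 802 in Fmo5-/- livers. The highest Fmo5-/- value lay just below the lowest WT value, and the WT mice spread more widely. Its log2 fold change was -0.33 (SE 0.12, unadjusted p = 0.020 and adjusted p = 0.15 by edgeR), and its CACGTG match was counted above. Without WT replicate 2 it was -0.21 (unadjusted p = 0.088 by edgeR), and without Fmo5-/- replicate 1 it was -0.31 (unadjusted p = 0.057 by edgeR). Without a filter on low counts edgeR called Atg14 (adjusted p = 0.039), where it called 5.82% of all genes, against 1.37% in the reported fit. Uvrag, the subunit that takes the place of ATG14 in the complex acting on endosomes, stood at 1486 ± 65.7 (SD, n = 3) and 1331 ± 91.1 without overlap (log2 fold change -0.16, SE 0.082, adjusted p = 0.31 by edgeR). The catalytic subunit Pik3c3 (VPS34) had a log2 fold change of -0.13 (SE 0.093) and the scaffold subunit Becn1 of -0.13 (SE 0.078), both with overlap. Without Fmo5-/- replicate 1, Pik3c3 was at -0.225 (unadjusted p = 0.028 by edgeR), and without WT replicate 2 Becn1 was at -0.083. Pik3r4 (VPS15), the regulatory subunit, was nearly level at -0.0034 (SE 0.088), and Ambra1, a regulator of beclin 1, at 0.056 (SE 0.081). Counts were taken without regard to strand, and 43.9% of the exon bases of Becn1 are shared with Cntd1 and 17.6% of those of Uvrag with Gm45187 on the other strand. Each strand column held 49.9% to 50.1% of the sum of both strand columns of a library, as from a kit that does not mark strand, so neither column tells reads of such partners apart. Stretches of a Uvrag transcript also match Mettl6 (345 bases, 95.1% identity) and Klhl20 (344 bases, 95.6%). These held 551 to 762 and 516 to 739 counts per library, against 1331 to 1518 for Uvrag.

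Among the genes of membrane supply and of phosphoinositide binding, none reached an unadjusted p under 0.05 by edgeR, none had an adjusted p under 0.05 by edgeR or DESeq2, and all 5 overlapped between the genotypes. Atg9a, the lipid scramblase carried on vesicles, stood at 1488 ± 207 (SD, n = 3) in WT and 1432 ± 153 in Fmo5-/- mice (log2 fold change -0.055, SE 0.12). Of the lipid transfer genes, Atg2a had a log2 fold change of 0.13 (SE 0.11) and Atg2b of -0.014 (SE 0.087). Atg2a was at 0.24 without WT replicate 3 (unadjusted p = 0.049 by edgeR) and at 0.040 without Fmo5-/- replicate 1. Wipi1 and Wipi2, the phosphoinositide effectors, had log2 fold changes of -0.10 (SE 0.096) and -0.060 (SE 0.080). Wipi1 was at -0.029 without Fmo5-/- replicate 2 and -0.047 without WT replicate 2, and Wipi2 ran from -0.094 to -0.012 with 1 library left out. The intervals allow differences of some size, from -0.12 to 0.38 for Atg2a and from -0.32 to 0.12 for Wipi1. Of the exon bases of Atg9a, 32.6% are shared with Ankzf1 or Gm29253. A stretch of 536 bases of Atg2b matches D10Wsu102e at 95.7% identity, which held 699 to 929 counts per library against 1807 to 2183 for Atg2b.

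Of the 11 conjugation genes, 6 (54.5%) were lower at an unadjusted p under 0.05 by edgeR, against 10.2% of all tested genes and 17.6% of those that reached a mean of 500, and 6 were lower without overlap between the genotypes, against 13.5% and 21.9%. Without WT replicate 2 the first count was 3 of 11 (Atg3, Atg4a and Atg12), and with genes under a mean of 500 removed first it was 3 of 9. Atg3, the conjugating enzyme that transfers ATG8 proteins to lipid, was counted at 5307, 4538 and 4810 (normalized) in WT and 3845, 3651 and 4208 in Fmo5-/- livers. Every Fmo5-/- value lay below every WT value. Its log2 fold change was -0.32 (95% interval -0.53 to -0.12, SE 0.092), with an adjusted p of 0.093 by edgeR and 0.035 by DESeq2. Its promoter carries CACGTG at 2 places, shown above. Atg7, the activating enzyme of both conjugation systems, stood at 2709, 2929 and 2536 in WT and at 2287, 2304 and 2276 in the Fmo5-/- mice. The Fmo5-/- mice were nearly identical and lay below all WT mice, with a log2 fold change of -0.25 (SE 0.079, adjusted p = 0.12 by edgeR and 0.086 by DESeq2). Its unadjusted p without WT replicate 2 was 0.051 by edgeR.

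Atg12 and Atg5, whose products are joined to each other to form part of the ligase for ATG8 proteins, had lower means in Fmo5-/- mice, without overlap, and neither was called. Atg12 was counted at 1744, 1654 and 1498 (normalized) in WT and 1366, 1384 and 1292 in Fmo5-/- livers, a log2 fold change of -0.28 (SE 0.083, adjusted p = 0.11 by edgeR). Atg5 stood at 2742 ± 304 (SD, n = 3) and 2296 ± 17.6, a log2 fold change of -0.26 (SE 0.093, adjusted p = 0.16 by edgeR), and its unadjusted p was 0.10 without WT replicate 1, 0.075 without WT replicate 2 and 0.054 without Fmo5-/- replicate 3. Of the other genes around this ligase, Atg16l1 had a log2 fold change of -0.016 (SE 0.10) and Atg10, the enzyme that transfers ATG12 to ATG5, of -0.16 (SE 0.13), or -0.090 without Fmo5-/- replicate 2. Whether the difference of Atg5 and Atg12 exceeds that of Atg16l1 was not tested. Atg16l2, a relative of Atg16l1, was the least certain of the 38, with WT values of 1209, 890 and 2393 and Fmo5-/- values of 1864, 1958 and 1501. A single WT mouse was the highest of all 6 and the other WT mice were the lowest, and the log2 fold change of 0.24 had an interval from -0.72 to 1.21. Without the high mouse, WT replicate 3, it was 0.76 (unadjusted p = 0.0018 and adjusted p = 0.077 by edgeR).

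Of the ATG4 proteases, which trim ATG8 precursors and release ATG8 from membrane, none was called by edgeR and Atg4a was called by DESeq2, and no test compared them with each other. Atg4a was counted at 414, 412 and 389 (normalized) in WT and 323, 317 and 298 in Fmo5-/- livers. Both groups were tight and well apart, with a log2 fold change of -0.37 (SE 0.10), an adjusted p of 0.094 by edgeR and 0.049 by DESeq2. A pseudogene, Atg4a-ps, matches 2115 bases of an Atg4a transcript at 99.3% identity, so reads of that stretch may map to both, and it held 2 to 6 counts per library against 304 to 391 for Atg4a. Atg4c stood at 706 ± 62.2 (SD, n = 3) and 589 ± 42.3 (log2 fold change -0.26, SE 0.10, adjusted p = 0.18 by edgeR and 0.20 by DESeq2), where the lowest WT and highest Fmo5-/- values, 634.9 and 634.4, nearly met. Its unadjusted p by edgeR was 0.074 to 0.097 without WT replicate 1, WT replicate 2, Fmo5-/- replicate 2 or Fmo5-/- replicate 3. Atg4b had a log2 fold change of -0.055 (SE 0.075; -0.091 to -0.029 with 1 library left out) and Atg4d of 0.0045 (SE 0.099), a value whose sign turned with DESeq2 and with DESeq2's scaling in edgeR. Of the exon bases of Atg4d, 19.3% are shared with Kri1.

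**Figure D3:**
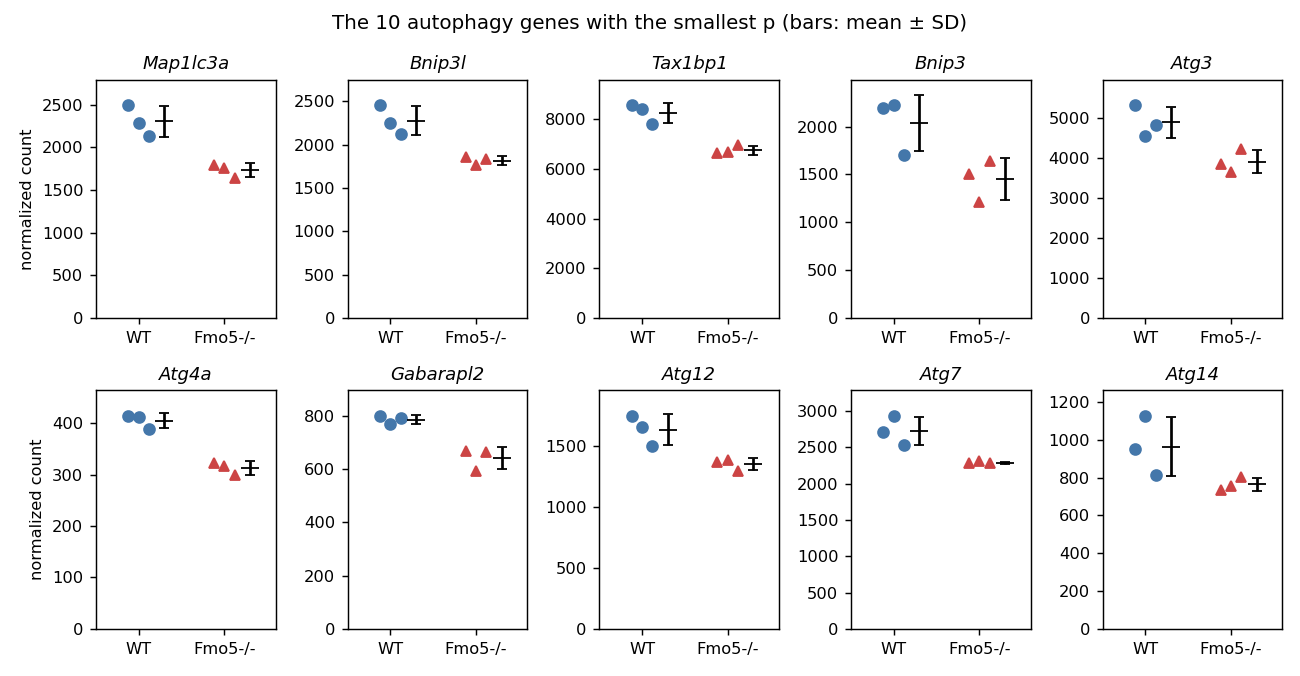
Normalized counts (y axes, from 0) of the 10 autophagy genes with the smallest p by edgeR in each mouse; circles are the 3 WT and triangles the 3 Fmo5-/- mice, and bars beside them give the mean ± SD. Every triangle lies below every circle of the same gene, by a wide gap for Atg4a and by a narrow one for Bnip3 and Atg14.

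All 5 ATG8 genes had a lower mean in Fmo5-/- mice, although Map1lc3b and Gabarapl1 turned to the other side when genes with a mean under 500 were removed before scaling. Map1lc3a, which encodes LC3A, was counted at 2491, 2284 and 2134 (normalized) in WT and 1797, 1754 and 1640 in Fmo5-/- livers. All Fmo5-/- mice lay below all WT mice, and the log2 fold change of -0.41 (95% interval -0.60 to -0.22, SE 0.085) had the smallest p of the 38 genes, an adjusted p of 0.055 by edgeR and 0.0032 by DESeq2. Map1lc3b, which encodes LC3B, the LC3 most often used to follow autophagosomes, stood at 2229, 2678 and 2362 against 2414, 2333 and 2249. Its groups overlapped, with a log2 fold change of -0.055 (SE 0.088). No test compared the difference of the LC3 genes with each other.

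In the GABARAP branch of the family, Gabarapl2 was counted at 800, 768 and 791 (normalized) in WT and 669, 593 and 663 in Fmo5-/- livers. Its groups were apart, with a log2 fold change of -0.29 (SE 0.086) and an adjusted p of 0.10 by edgeR. Gabarap stood at 8445, 8605 and 7779 against 6999, 7710 and 7646. The highest Fmo5-/- mouse lay just under the lowest WT mouse, with a log2 fold change of -0.15 (SE 0.085, adjusted p = 0.34 by edgeR). Gabarapl1 had values of 15935, 13352 and 12500 against 12889, 13552 and 14303, which overlapped, with a log2 fold change of -0.036 (SE 0.11). Of its exon bases, 28.3% are shared with an antisense transcript. Processed copies match 352 bases of Gabarapl2 (Gm6051, 98% identity) and 378 bases of Map1lc3b (Gm6055, 99.7%), and Gm6055 held 86 to 114 counts per library against 2105 to 2591 for Map1lc3b.

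The 6 cargo receptors all had a lower mean in Fmo5-/- mice, under each of the 12 other ways of processing as well. Of the 6, 4 (66.7%) were lower at an unadjusted p under 0.05 by edgeR and without overlap. The count at that level was 3, without Nbr1, when WT replicate 1 or 2 or Fmo5-/- replicate 2 or 3 was left out. It was also 3 with genes under a mean of 500 removed first. Of all tested genes, 10.2% were lower at that level and 13.5% lower without overlap (17.6% and 21.9% of those that reached a mean of 500). The mitophagy receptors, which sit in the outer mitochondrial membrane and are known to be induced by hypoxia, include Bnip3, with the largest log2 fold change below 0 of the 38. Bnip3 was counted at 2194, 2222 and 1704 (normalized) in WT and 1504, 1213 and 1639 in Fmo5-/- livers. The lowest WT mouse and the highest Fmo5-/- mouse were close, and the log2 fold change was -0.49 (95% interval -0.80 to -0.18, SE 0.14), with an adjusted p of 0.093 by edgeR and 0.021 by DESeq2. Bnip3l (NIX) stood at 2454, 2252 and 2123 against 1857, 1760 and 1831. Its Fmo5-/- mice were tight and below all WT mice, with a log2 fold change of -0.33 (SE 0.081) and an adjusted p of 0.074 by edgeR and 0.024 by DESeq2. Both have near-identical copies, Bnip3l-ps over 1131 bases (99.4%) and AC160336.1 over 858 bases of Bnip3 (98.3%), with at most 22 counts in a library, and 22.3% of the exon bases of Bnip3 are shared with Gm45507. From reads of 1 strand Bnip3 had a log2 fold change of -0.33 (adjusted p = 0.19 by edgeR), behind Map1lc3a at -0.42, Atg14 at -0.36, Atg4a at -0.34 and Bnip3l at -0.33, and without Fmo5-/- replicate 2 it was at -0.376, behind Map1lc3a at -0.422 and Atg4a at -0.380.

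Of the receptors that bind ubiquitinated cargo, Tax1bp1 differed most. Its normalized count was 8562, 8397 and 7803 in the WT mice and 6631, 6667 and 6967 in the Fmo5-/- mice. The groups were well apart, with a log2 fold change of -0.29 (SE 0.080) and an adjusted p of 0.089 by edgeR and 0.022 by DESeq2. The TGACNNNGC match shown above is in 1 of the 2 promoters of Tax1bp1. Nbr1, an aggregate and peroxisome receptor, stood at 10986 ± 596 (SD, n = 3) and 9572 ± 249 without overlap (log2 fold change -0.20, SE 0.083, unadjusted p = 0.039 and adjusted p = 0.20 by edgeR), and its unadjusted p ran up to 0.13 with 1 library left out (WT replicate 2). Optn, the receptor optineurin, overlapped at 6120 ± 441 and 5563 ± 499 (log2 fold change -0.14, SE 0.096), and was at -0.069 without Fmo5-/- replicate 1. Sqstm1 (p62), itself degraded by autophagy as a protein and a known NRF2 target, stood at 27045 ± 1458 and 25518 ± 1489, with overlap (log2 fold change -0.084, 95% interval -0.29 to 0.12, adjusted p = 0.64 by edgeR), and its log2 fold change ran from -0.13 to -0.039 with 1 library left out. Of the exon bases of Sqstm1, 17.3% are shared with Mrnip.

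**Figure D4:**
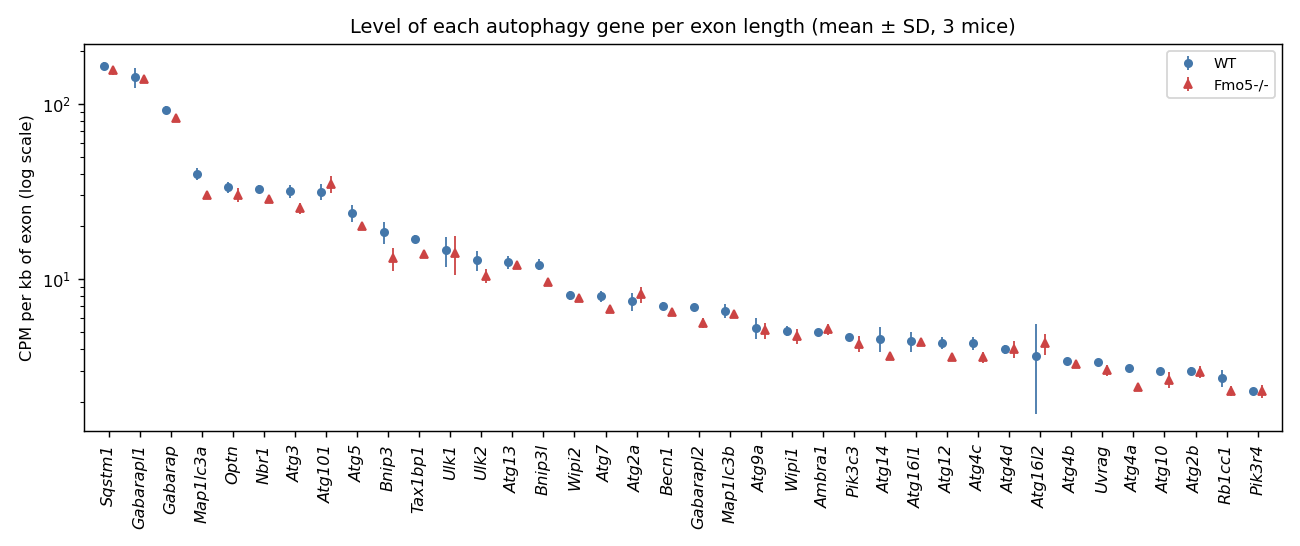
Level of each autophagy gene per exon length, as CPM per kb of exon (y axis, log scale), as the mean ± SD of 3 WT (circles) and 3 Fmo5-/- mice (triangles), ordered by the WT mean. Sqstm1, Gabarapl1 and Gabarap lead at 165, 142 and 91.98 in WT mice, and Pik3r4 is lowest at 2.30.

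Levels were compared between genes only per exon length, as CPM per kb of exon. Sqstm1 led in WT liver at 165 ± 8.90 (SD, n = 3), followed by Gabarapl1 at 142 ± 18.2 and Gabarap at 91.98 ± 4.87. Map1lc3a followed at 39.96 ± 3.11 in WT and 30.0 ± 1.41 in Fmo5-/- mice, Optn at 33.4 ± 2.41, Nbr1 at 32.8 ± 1.78, Atg3 at 31.7 ± 2.53 and Atg101 at 31.5 ± 3.33 in WT, the last 4 within each other's spread. Map1lc3b was lower per length, at 6.61 ± 0.629, and Gabarapl2 at 6.93 ± 0.146. The gap between Map1lc3b and Map1lc3a rests on the lengths used, 7.517 and 1.181 kb. Their normalized counts in WT mice were 2423 ± 231 and 2303 ± 179. The lowest were Pik3r4 at 2.30 ± 0.0966, Rb1cc1 at 2.72 ± 0.299, Atg2b at 2.98 ± 0.154, Atg10 at 2.99 ± 0.0938 and Atg4a at 3.12 ± 0.109. The lengths are unions of all annotated exons, so a gene with long, little used untranslated exons is placed too low.

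**Figure D5:**
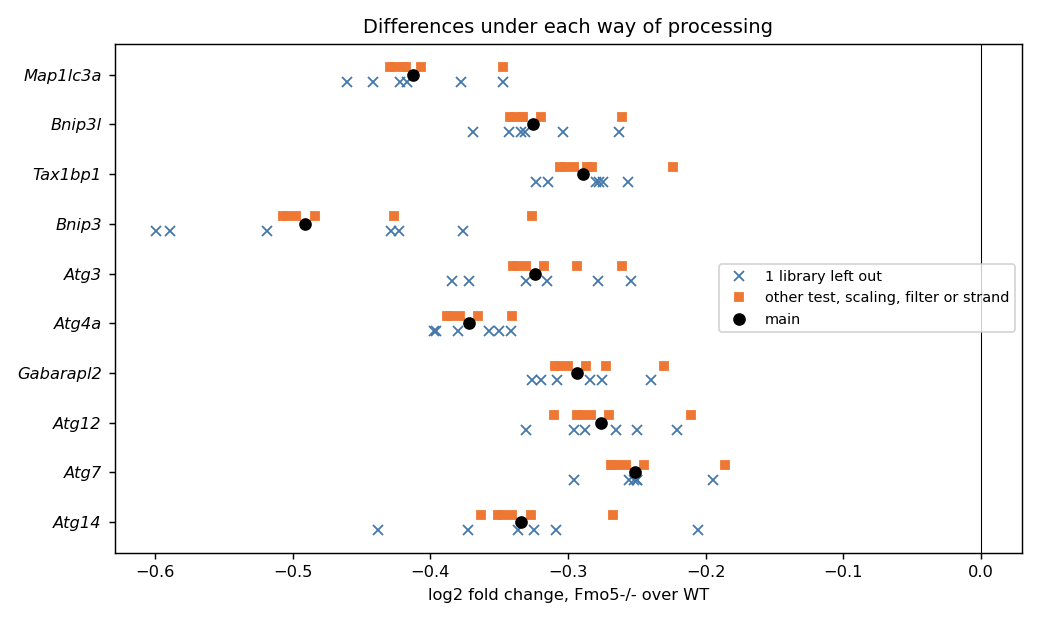
Log2 fold change, Fmo5-/- over WT (x axis), of the 10 autophagy genes with the smallest p (y axis) as reported (circles), with 1 library left out (crosses) and with another test, scaling, filter or strand column (squares). All values lie left of 0, and those of Bnip3 span the widest range, from -0.60 to -0.33.

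Other genes of the pathway were read in 4 lists of 80 genes in all. None was called by edgeR in any of them. Of 13 other core factors, 4 (30.8%) were lower at an unadjusted p under 0.05 by edgeR and none higher. Of all tested genes 10.2% were lower at that level, and 17.6% of those that reached a mean of 500. DESeq2 called 2 (lower), against 4.21% of all genes and 528 of the 7819 that reached a mean of 500. Without overlap 5 (38.5%) were lower, against 13.5% and 21.9%. Ei24, an endoplasmic reticulum protein needed for autophagosome formation, was counted at 10390, 9722 and 8233 (normalized) in WT and 7066, 6520 and 7113 in Fmo5-/- mice (log2 fold change -0.45, SE 0.10, adjusted p = 0.063 by edgeR). Without WT replicate 3 Ei24 was called at -0.54 (adjusted p = 0.0497 by edgeR). Trp53inp2, which binds ATG8 proteins in the nucleus and at autophagosomes, stood at 8921 ± 733 (SD, n = 3) and 7041 ± 206 (log2 fold change -0.34, SE 0.089, adjusted p = 0.079 by edgeR). Both were apart between the genotypes. Of 20 other selective receptors, 5 (25%) were lower at an unadjusted p under 0.05 by edgeR and none higher. DESeq2 called 1 (lower), against 4.21% of all genes and 528 of the 7819 that reached a mean of 500. Only Ncoa4 stayed lower at an unadjusted p under 0.05 by edgeR without Fmo5-/- replicate 2, and likewise without Fmo5-/- replicate 3. Wdfy3 joined as higher without Fmo5-/- replicate 2 (log2 fold change 0.28, unadjusted p = 0.011 by edgeR). Without overlap 9 (45%) were lower, against 13.5% and 21.9%. Ncoa4, the receptor for ferritin, had values of 1625, 1683 and 1397 against 1185, 913 and 1135 (log2 fold change -0.54, SE 0.12, adjusted p = 0.056 by edgeR). Stbd1, a glycogen receptor, stood at 4086 ± 1010 against 3022 ± 62.8 (log2 fold change -0.43, SE 0.15, adjusted p = 0.15 by edgeR). WT replicate 2, at 5249, was well above the other WT mice at 3570 and 3437, and without it Stbd1 was at -0.21 (unadjusted p = 0.036 by edgeR).

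The lists on either side of the pathway went both ways. Of 17 genes of autophagosome-lysosome fusion, 3 (17.6%) were lower and 2 (11.8%) higher at an unadjusted p under 0.05 by edgeR, close to the 10.2% lower and 11.6% higher of all tested genes and the 17.6% and 7.62% of those that reached a mean of 500. Without WT replicate 2, Vps41 among the lower and Vps18 among the higher lost that level, and Rilp joined as lower. DESeq2 called 1 of the 17 in each direction, against 4.21% lower and 4.75% higher of all genes. Of the 7819 genes that reached a mean of 500 it called 528 as lower and 219 as higher. Without overlap 3 (17.6%) were lower and 3 (17.6%) higher, against 13.5% and 13.9% of all tested genes and 21.9% and 9.39% of those that reached a mean of 500. Tecpr1, a tethering factor that binds the ATG12-ATG5 conjugate, had the smallest p and a higher mean, at 931, 935 and 1081 in WT and 1259, 1287 and 1259 in Fmo5-/- mice (log2 fold change 0.37, SE 0.085, adjusted p = 0.066 by edgeR and 0.025 by DESeq2). Lamp2, a lysosomal membrane protein needed for fusion, stood at 39087, 38720 and 34306 in WT and 29901, 26179 and 30439 in Fmo5-/- mice, with no overlap (log2 fold change -0.37, SE 0.10, adjusted p = 0.084 by edgeR and 0.011 by DESeq2). Of 30 upstream signalling genes, 4 (13.3%) were lower and 3 (10%) higher at an unadjusted p under 0.05 by edgeR, again close to the shares of all tested genes, and DESeq2 called none. Without Fmo5-/- replicate 2, only Rheb was lower and only Flcn higher at that level. Without overlap 5 (16.7%) were lower and 3 (10%) higher, against 13.5% and 13.9% of all tested genes (21.9% and 9.39% at a mean of 500 or more). Rheb, the activator of mTORC1, had a log2 fold change of -0.25 (SE 0.076, adjusted p = 0.11 by edgeR) and Rragd, a GTPase that recruits mTORC1 to lysosomes and a known target of TFEB, of 0.58 (SE 0.19, adjusted p = 0.13 by edgeR). The medians of the 4 lists were -0.12, -0.13, -0.072 and -0.019, against -0.062 over all tested genes with a mean of 500 or more.

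The study also names 6 genes for the autophagy of lipid droplets, Map1lc3a among them. That list was chosen on these same samples and is no independent evidence of its direction. All 6 were lower at an unadjusted p under 0.05 by edgeR, against 10.2% of all tested genes and 17.6% of those that reached a mean of 500. None was called by edgeR and DESeq2 called all 6 as lower, against 4.21% of all genes and 528 of the 7819 that reached a mean of 500. All 6 were lower without overlap between the genotypes, against 13.5% and 21.9%. Hspa8, the chaperone of chaperone-mediated autophagy, was counted at 16406, 25091 and 17921 (normalized) in WT and 13232, 12447 and 13816 in Fmo5-/- mice (log2 fold change -0.59, SE 0.15). WT replicate 2 was far above the other WT mice, and without it the log2 fold change of Hspa8 was -0.38 (unadjusted p = 0.0060 by edgeR). Plin2, a lipid droplet coat protein, had a log2 fold change of -0.45 (SE 0.15), the lipase Pnpla8 of -0.40 (SE 0.098) and lysosomal acid lipase, Lipa, of -0.37 (SE 0.10). Lamp2 is the gene given above. The adjusted p of these 5 by edgeR ran from 0.071 to 0.13. Map1lc3a was the only one of the 38 members that the study placed among its lipophagy genes.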

How the data were processed

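RNA from 3 WT and 3 Fmo5-/- livers was sequenced as single reads of 75 bases. STAR 2.6.0c was used by the authors to align reads to mm10, and its raw counts per gene were deposited, for both strands and for each strand. They also deposited a table of signal (counts divided by a size factor per library, which was checked), log2 fold changes, Wald score and p-value columns from DESeq2 1.22.2; the comparison columns were not used. The annotation release is not given in the sources used here.

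Counts of both strands were filtered with filterByExpr (minimum count 10), scaled by TMM and compared by genotype with the robust quasi-likelihood test of edgeR 4.0.16 in R 4.3.3, with Benjamini-Hochberg adjustment over 16734 genes. A gene was called at an adjusted p under 0.05. A normalized count is the count divided by the scaled library size, times the mean of the 6 sizes. The standard error is the log2 fold change over the square root of F. Between 44886286 and 52338675 reads per library lay on genes. Positions, exon lengths and shared exons came from GENCODE vM21 (GRCm38, the build of mm10), by identifier without its version where versions differed. Near-identical copies were transcripts matching at least 300 bases at 95% identity or more. DESeq2 1.42.0, other scalings and filters, 1 strand and each library left out were tried, and the scripts were tested on simulated data. There both tools recovered large changes of genes with a mean of 500 or more but called few of the smallest changes tried. These were slightly larger than any seen among the members, and no smaller change was simulated. The simulated spread followed the trend over all genes and not each gene's own. The limit for passing was lowered after a stricter one had failed.

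All 38 members are named. Values in every mouse are given for the 10 with the smallest p and the 5 ATG8 genes, with Fmo5. Of the other lists, called genes or else the 2 with the smallest p are named. Promoters are printed for the 4 members with the smallest p and a CACGTG or TGACNNNGC match. Values in every mouse of Atg16l2 were added after they had been seen. The members and lists were chosen with earlier results of these data known.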

Additional observations from a re-analysis of the deposited data

How the results depend on the processing

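Of the 38 members, 21 were lower and 2 (Atg101 and Atg2a) higher under the reported processing and all 12 others, and Atg4a and Atg10 were lower in the 11 others that tested them. DESeq2 called 6 members and edgeR without a filter on low counts 6, where 8.96% and 5.82% of all genes tested were called, and no other way of processing called any. These same 2 settings called 2 and 3 other core genes, 1 and 2 other receptors, 2 and 2 fusion genes, 0 and 1 upstream genes and 6 and 6 lipophagy genes. Removing genes with a mean under 500 before the fit (36 members left) gave 21 lower, 9 at an unadjusted p under 0.05 and a median of -0.066, and the median over those genes moved from -0.062 to 0.0017. There Becn1 was at -0.0616, Pik3c3 at -0.0693, Uvrag at -0.0946 and Wipi1 at -0.0392. Gabarap, Optn and Sqstm1 reached at most -0.0852, -0.0705 and -0.0193 with another test, scaling, filter or strand column. With 1 library left out, 8 to 17 members were at an unadjusted p under 0.05 (fewest without WT replicate 2, most without WT replicate 3, where Atg16l2 and Atg2a joined as higher; 8 of the 15 members kept it without each library in turn), and 0 to 1 other core genes were called (1 without WT replicate 3).

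The direction turned for 13 members, in 36 values. With the mean limit of 500 first, log2 fold changes were 0.0033 (Ulk1), 0.016 (Atg13), 0.060 (Pik3r4), 0.0087 (Atg9a), 0.050 (Atg2b), 0.0052 (Wipi2), 0.0096 (Atg4b), 0.051 (Atg16l1), 0.0097 (Map1lc3b) and 0.030 (Gabarapl1). Without the 20 most abundant genes in the scaling Pik3r4 was at 0.0026, and from 1 strand Pik3r4 was at 0.0046 and Atg2b at 0.053. Atg4d was at -0.012 with DESeq2, -0.0027 with its scaling in edgeR and -0.0089 without a filter. With 1 library left out, log2 fold changes ran from -0.25 to 0.11 (Ulk1), -0.11 to 0.0087 (Atg13), -0.078 to 0.035 (Pik3r4), -0.0021 to 0.10 (Ambra1), -0.14 to 0.060 (Atg9a), -0.051 to 0.052 (Atg2b), -0.074 to 0.089 (Atg4d), -0.082 to 0.10 (Atg16l1), -0.020 to 0.76 (Atg16l2), -0.11 to 0.024 (Map1lc3b) and -0.10 to 0.077 (Gabarapl1). The cause of these changes was not tested. No paired analysis was possible because the labels give the mice no shared replicate numbers. Depth limits the lowest member most, Atg10, with 201 to 257 normalized counts per library.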
